A study of Mus musculus with 6 samples.

Results

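Cell cycle and DNA replication genes were compared between hearts of mice lacking cyclophilin D and wild-type hearts. The set was a list of 38 named genes, and a gene was taken as measured where a probe set of the array carried its symbol and no other. In this way 37 of the 38 genes were measured, of 19938 genes in all. The cyclin gene Ccnb1 had no probe set of its own and was not analysed here. Pcna and Top2a each had 2 probe sets, and the brightest probe set of a gene, by its mean over all hearts, stood for it.

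The groups were 3 Ppif-/- hearts and 3 WT hearts, all from mice 8 weeks old and labelled C57BL/6, with 1 array per heart and no treatment named. Ppif encodes cyclophilin D, a mitochondrial isomerase that favours opening of the permeability transition pore. The Ppif-/- mice carried a global knockout, so the gene was missing from every cell type of the heart and from every other organ, and the line was started on Sv129 and then crossed to C57BL/6. The age was chosen by the submitters to lie before any dysfunction of the heart muscle. The sources used here do not give the number of back-crosses or say whether the WT mice were littermates. The labels number separate hearts, so the spread within a group was the spread between these hearts. The 10 cardiomyocyte markers examined had a summed level of 16.86 to 16.90 on the log2 scale in every heart. The question put to the 37 genes was whether they were higher where Pttg1, the gene of securin, was higher.

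A dividing cell passes through a growth phase, a phase of DNA copying and mitosis. D-type and E-type cyclins open the way to DNA copying, the MCM helicase is loaded on DNA beforehand, and A-type and B-type cyclins with Cdk1 drive mitosis. Securin holds separase inactive until the anaphase-promoting complex, activated by Cdc20, marks it for destruction and the sister chromatids part. Cardiomyocytes of the adult mouse rarely divide, and most cycling cells in a healthy adult heart are of other types. In whole hearts, fewer cells of a type and less RNA per cell cannot be told apart.

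Values are log2 signals after RMA, the array summary method that corrects background, equalises the arrays and combines the probes of a probe set. They ran from 1.91 to 14.63, and the array medians lay between 6.03 and 6.11. Probe sets differ in how brightly they respond, so levels are compared between hearts and not between genes. The 1035 probe sets of olfactory receptors, genes a heart is not known for, had a median of 3.89 and a 95th percentile of 5.45. The mean level of 32 of the 37 genes lay above that percentile, and those of Birc5, Bub1, Ttk, Cenpe and Kif11 lay below it. Ppif-/- heart 1 stood apart from the other Ppif-/- hearts in these genes. It was the highest of the 6 hearts in 35 of the 37 genes, the exceptions being Ccnd2 and Ccnd3, against 15.1% of all 23410 probe sets tested. In 11 genes it lay at least 1 log2 unit above the mean of Ppif-/- hearts 2 and 3, as did 55 of all probe sets tested (0.235%), and in 22 at least 0.5 log2 units above it, as did 1.32% of all. WT heart 2 lay as far above the other WT hearts in 43 probe sets, none of them a member of the list. Results on the 37 genes, and calls on other genes, are therefore given with and without Ppif-/- heart 1.

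Pttg1 had levels of 9.45, 9.46 and 9.39 in Ppif-/- hearts 1 to 3 and of 5.96, 6.42 and 6.25 in WT hearts 1 to 3. It was 9.34-fold higher in Ppif-/- hearts (3.22 ± 0.12 SE on the log2 scale, n = 3 per group, limma adjusted p = 2.34e-05), and the 3 Ppif-/- hearts were nearly level, with a difference of 3.21 when Ppif-/- heart 1 was left out. The cell cycle and replication genes had another shape across the same hearts. Their median deviation from each gene's mean over all hearts was 0.58 in Ppif-/- heart 1, 0.0042 in heart 2 and -0.03 in heart 3. It was -0.26, -0.26 and -0.17 in WT hearts 1 to 3. Ppif-/- heart 1 thus stood far above the rest in these genes, and at the same level as its group in Pttg1, while hearts 2 and 3 lay a smaller step above the WT hearts.

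**Figure D1:**
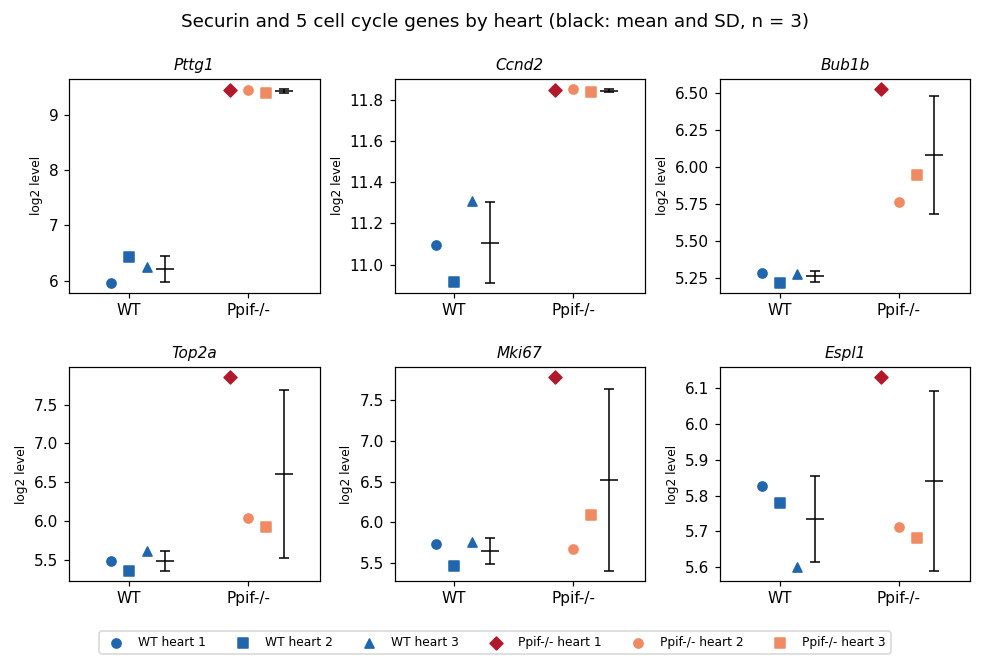
Each panel plots the log2 level of a gene in the 6 hearts, with each heart as a marker and each group's mean and SD (n = 3) as a black bar. Pttg1 and Ccnd2 are nearly level over the Ppif-/- hearts, while Ppif-/- heart 1 (red diamond) stands at 7.78 in Mki67 and 7.85 in Top2a, apart from the other hearts, and the Espl1 groups overlap.

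Of the 37 genes, 1 was higher in Ppif-/- hearts by limma at a Benjamini-Hochberg adjusted p under 0.05, the D-type cyclin gene Ccnd2, and 0 were lower. Of all 23410 probe sets tested, 1.09% passed, 0.624% as higher and 0.461% as lower. At an unadjusted p under 0.05 by limma, 20 of the 37 genes (54.1%) were higher, against 6.10% of all probe sets tested, and 0 were lower, against 6.81%. Every Ppif-/- heart lay above every WT heart in 19 genes (51.4%), against 9.21% of all probe sets tested. The difference was above 0 in all 37 genes measured, against 49.2% of all probe sets tested, and its median over the genes was 0.43 on the log2 scale, against -0.0023 over all probe sets. The genes were measured in the same 6 hearts and are not independent of each other, so these counts carry no p.

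Without Ppif-/- heart 1, the differences were about as often above 0 and smaller. They were above 0 in 36 of the 37 genes, Espl1 being the exception, against 51.6% of all probe sets tested. The median was 0.22, against 0.0054 over all probe sets. In 19 genes both remaining Ppif-/- hearts lay above every WT heart, against 15.8% of all probe sets tested. By limma 1 gene passed the adjusted threshold, the spindle checkpoint gene Bub1b, against 0.730% of all probe sets tested (0.436% as higher). At an unadjusted p under 0.05, 15 were higher by limma (40.5%), against 6.42%. None of the 37 was lower at that unadjusted p, against 6.06% of all probe sets tested.

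The 95% intervals of the limma fit describe the precision of each difference, gene by gene and without adjustment for the number of genes. Those without Ppif-/- heart 1 leave out a heart that was singled out by its high values in these genes. With all hearts, the 95% interval of the difference lay wholly below a 2-fold increase in 20 of the 37 genes, against 99.2% of all probe sets tested. It reached a 1.5-fold increase in 28 genes, against 4.08% of all. Without Ppif-/- heart 1 it lay below a 2-fold increase in 36 genes, against 99.4%, and reached a 1.5-fold increase in 10, against 4.99%. Ccnd2 was the exception, with an upper bound of 1.02 on the log2 scale. Measured differences of 2-fold or more were found with all hearts in Rrm2, Ccna2 and Top2a, against 0.286% of all probe sets tested, and in 0 genes without Ppif-/- heart 1, against 0.248%.

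**Figure D2:**
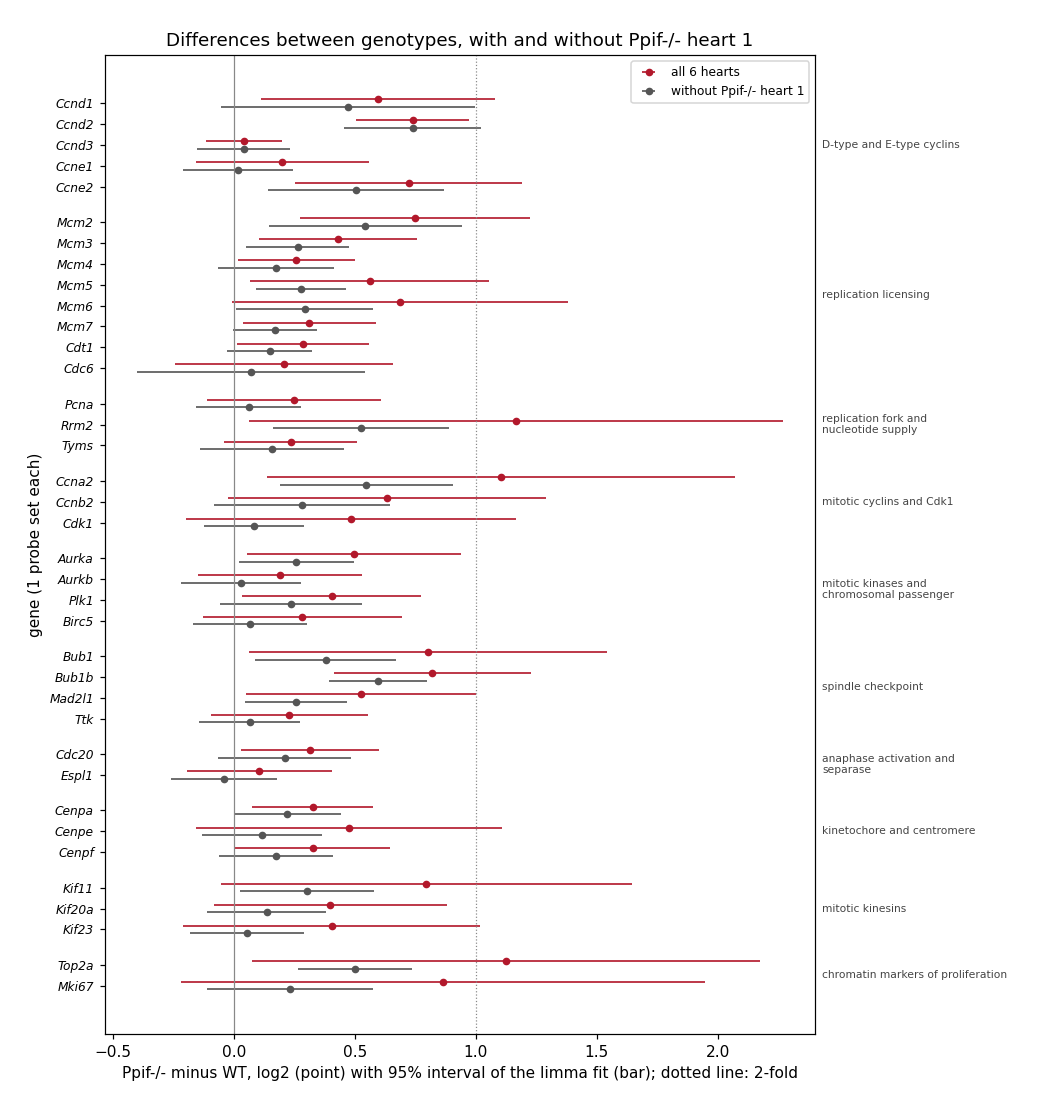
Points are the log2 difference, Ppif-/- minus WT, of each gene, and bars are its 95% interval in the limma fit, with all 6 hearts (red) and without Ppif-/- heart 1 (grey). All 37 red points lie above 0, and without that heart the interval reaches the dotted line of a 2-fold increase in Ccnd2 alone.

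The D-type and E-type cyclins, which start the cycle, differed among themselves. Ccnd2, whose product activates Cdk4 and Cdk6, had levels of 11.85, 11.85 and 11.84 in Ppif-/- hearts 1 to 3 and of 11.09, 10.92 and 11.31 in WT hearts 1 to 3. The Ppif-/- hearts were nearly level and the groups did not overlap, with means of 11.85 ± 0.01 and 11.11 ± 0.20 (SD, n = 3 each). Ccnd2 was 1.67-fold higher in Ppif-/- hearts (0.74 ± 0.10 SE, limma adjusted p = 0.0161). The call rested on few hearts. The limma adjusted p was 0.0546 without Ppif-/- heart 1, 0.0739 without heart 2, 0.0801 without heart 3 and 0.0749 without WT heart 1, while the difference without Ppif-/- heart 1 was 0.74.

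Ccnd1, the D-type cyclin gene best known as a target of growth signals, had levels of 9.95, 9.59 and 9.57 in Ppif-/- hearts and of 9.16, 8.65 and 9.51 in WT hearts. The groups did not overlap, but WT heart 3 lay close to the lower Ppif-/- hearts. The difference was 0.60 ± 0.21 SE (limma adjusted p = 0.279) with all hearts and 0.47 without Ppif-/- heart 1. Ccnd3, the third D-type cyclin gene, had levels of 7.68, 7.62 and 7.73 against 7.70, 7.61 and 7.60, which overlapped, and its difference was 0.04 ± 0.07 SE, and 0.04 without Ppif-/- heart 1. With all hearts its interval ran from -0.12 to 0.20 on the log2 scale.

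The E-type cyclin genes encode the partners of Cdk2 at the start of DNA copying. Ccne2 had levels of 6.25, 5.86 and 5.33 in Ppif-/- hearts and of 5.18, 5.03 and 5.07 in WT hearts. All 3 Ppif-/- hearts were above all WT hearts, with heart 1 highest and heart 3 close to the WT hearts. Ppif-/- heart 3 and every WT heart lay below the olfactory receptor percentile. The difference was 0.72 ± 0.20 SE (limma adjusted p = 0.18), or 0.50 without Ppif-/- heart 1. It passed the threshold when Ppif-/- heart 3 was left out (limma adjusted p = 0.0379). Ccne1 had levels of 6.50, 6.03 and 5.87 against 5.83, 5.94 and 6.03, which overlapped, and a difference of 0.20 that was 0.02 without Ppif-/- heart 1.

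The 8 licensing genes, which load the replicative helicase at origins, all had a difference above 0, and 6 of them were higher in Ppif-/- hearts at an unadjusted p under 0.05 by limma, against 49.2% and 6.10% of all probe sets tested. Their median difference was 0.37, and 0.22 without Ppif-/- heart 1. Mcm2, a helicase subunit, had levels of 8.33, 7.77 and 7.66 in Ppif-/- hearts and of 7.32, 6.81 and 7.38 in WT hearts. The groups did not overlap, and the difference was 0.75 ± 0.21 SE (limma adjusted p = 0.17), or 0.54 without Ppif-/- heart 1.

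Mcm3, another subunit, had levels of 8.05, 7.63 and 7.47 against 7.24, 7.25 and 7.37. Mcm5 had levels of 7.66, 6.82 and 6.80 against 6.51, 6.49 and 6.60. Mcm7 had levels of 8.17, 7.73 and 7.75 against 7.57, 7.60 and 7.53. In all 3 genes the groups did not overlap, Ppif-/- heart 1 was the highest, and the other Ppif-/- hearts lay a smaller step above the WT hearts. The differences were 0.43 in Mcm3, 0.56 in Mcm5 and 0.31 in Mcm7, with limma adjusted p-values of 0.245, 0.318 and 0.32. Without Ppif-/- heart 1 they were 0.26, 0.28 and 0.17.

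Mcm6 had levels of 7.26, 6.06 and 6.09 against 5.82, 5.58 and 5.97, so that Ppif-/- heart 1 lay 1.18 above the mean of the other Ppif-/- hearts, more than in any other licensing gene, and its difference was 0.69. The remaining licensing genes had smaller differences, of 0.26 in Mcm4, 0.29 in Cdt1, the gene of a loading factor, and 0.21 in Cdc6, the gene of its partner at origins. Without Ppif-/- heart 1 the differences were 0.29 in Mcm6, 0.17 in Mcm4, 0.15 in Cdt1 and 0.07 in Cdc6. Groups of Mcm4 and Cdc6 overlapped.

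Among genes of the fork and of nucleotide supply, Rrm2 had the largest difference of all 37 genes. It encodes the small subunit of ribonucleotide reductase, which makes deoxynucleotides and is abundant in cells that copy DNA. Its levels were 8.50, 6.43 and 6.74 in Ppif-/- hearts and 5.87, 6.31 and 5.99 in WT hearts. Ppif-/- heart 1 lay 1.92 above the mean of the other Ppif-/- hearts, and the lowest Ppif-/- heart lay close to the highest WT heart. The difference was 1.17 ± 0.48 SE (limma adjusted p = 0.356), and 0.53 ± 0.15 SE (limma adjusted p = 0.238) without Ppif-/- heart 1. Pcna, the gene of the sliding clamp, had levels of 9.98, 9.52 and 9.32 against 9.38, 9.40 and 9.29, which overlapped. Its difference was 0.25 in each of its 2 probe sets, which had nearly the same levels in every heart, and 0.06 without Ppif-/- heart 1. Tyms, the gene of thymidylate synthase, had a difference of 0.23, or 0.16 without Ppif-/- heart 1, and overlapping groups.

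The mitotic cyclins and Cdk1 stood highest in Ppif-/- heart 1. Ccna2, the cyclin gene of DNA copying and early mitosis, had levels of 7.25, 5.60 and 5.56 in Ppif-/- hearts and of 5.30, 4.76 and 5.05 in WT hearts. The groups did not overlap, and the difference was 1.103 ± 0.418 SE (limma adjusted p = 0.318), or 0.55 without Ppif-/- heart 1. Every WT heart lay below the olfactory receptor percentile in Ccna2. Cdk1, the kinase gene of mitotic entry, had levels of 6.76, 5.65 and 5.48 against 5.48, 5.43 and 5.53. Apart from Ppif-/- heart 1 the groups overlapped, and the difference was 0.48 ± 0.29 SE (limma adjusted p = 0.548) with all hearts and 0.08 ± 0.09 SE without that heart, with an interval of -0.12 to 0.29. Ccnb2, a B-type cyclin gene, had levels of 7.13, 5.80 and 6.33 against 5.79, 5.69 and 5.87, and its groups overlapped. Its difference was 0.63 with all hearts and 0.28 without Ppif-/- heart 1.

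The genes of the mitotic kinases and of the chromosomal passenger complex had differences of 0.19 to 0.50. Aurka, a centrosome kinase gene, had the largest of them (0.50 ± 0.19 SE, limma adjusted p = 0.323), with groups that did not overlap, and 0.26 without Ppif-/- heart 1. Plk1, a kinase gene of several mitotic steps, had a difference of 0.40, or 0.24 without Ppif-/- heart 1, and Ppif-/- heart 2 lay within the range of the WT hearts. Aurkb, the kinase gene of the passenger complex, had a difference of 0.19, and Birc5, the gene of its survivin subunit, of 0.28. In both the groups overlapped, and without Ppif-/- heart 1 the differences were 0.03 and 0.07.

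The spindle checkpoint holds cells in metaphase until every kinetochore is attached, and its genes were the mitotic group with the highest median without Ppif-/- heart 1 save the 2 chromatin markers (0.32 against 0.37). Bub1b encodes BubR1, a subunit of the checkpoint complex that inhibits Cdc20. Its levels were 6.53, 5.77 and 5.95 in Ppif-/- hearts and 5.28, 5.22 and 5.28 in WT hearts. The groups did not overlap, and the WT hearts were nearly level, each of them below the olfactory receptor percentile. The difference was 0.82 ± 0.18 SE (limma adjusted p = 0.0888) with all hearts. Leaving out Ppif-/- heart 1 gave 0.60 ± 0.09 SE, which passed the threshold (limma adjusted p = 0.0366). Over the alternatives that tested Bub1b, which were all save the restriction to brighter probe sets, its limma adjusted p ran from 0.0366 to 0.23.

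Bub1, a checkpoint kinase gene, had levels of 5.68, 4.47 and 4.35 against 4.25, 3.88 and 3.96, so that only Ppif-/- heart 1 exceeded the olfactory receptor percentile. Its difference was 0.80 with all hearts and 0.38 without Ppif-/- heart 1. Mad2l1, whose product binds Cdc20 in the same complex, had a difference of 0.52, or 0.26 without Ppif-/- heart 1, and groups that did not overlap. Ttk, the gene of the kinase that recruits the checkpoint proteins, had a difference of 0.23, or 0.07 without Ppif-/- heart 1, overlapping groups and a level below the same percentile in every heart.

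Cdc20 and Espl1 act next to securin. Cdc20, the activator that directs the anaphase-promoting complex to securin, had levels of 6.60, 6.31 and 6.25 in Ppif-/- hearts and of 6.04, 5.91 and 6.27 in WT hearts. The groups overlapped through WT heart 3, and the difference was 0.32 ± 0.12 SE (limma adjusted p = 0.335), or 0.21 without Ppif-/- heart 1. Espl1, the gene of separase, the protease that securin holds, had levels of 6.13, 5.71 and 5.68 against 5.83, 5.78 and 5.60. The groups overlapped, and the difference of 0.11 ± 0.13 SE (limma adjusted p = 0.802) turned to -0.040 without Ppif-/- heart 1. Its interval ran from -0.20 to 0.41 with all hearts, beside a Pttg1 difference of 3.22.

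Of the centromere genes, Cenpa, the histone H3 variant gene that marks centromeres, had levels of 8.66, 8.33 and 8.37 in Ppif-/- hearts and of 8.16, 8.22 and 7.99 in WT hearts. The groups did not overlap, and the difference was 0.33 ± 0.11 SE (limma adjusted p = 0.253), or 0.22 without Ppif-/- heart 1. Cenpf, a gene of the outer kinetochore, had a difference of 0.33 and groups that did not overlap, and Cenpe, a kinetochore motor gene, one of 0.48 with groups that overlapped at low signal. Without Ppif-/- heart 1 these were 0.17 in Cenpf and 0.12 in Cenpe. The kinesin genes Kif11, Kif20a and Kif23, whose motors separate the spindle poles and complete cytokinesis, had differences of 0.80, 0.40 and 0.41. None of these kinesin genes passed an unadjusted p of 0.05 by limma with all hearts, and without Ppif-/- heart 1 their differences were 0.30, 0.14 and 0.05.

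The chromatin genes in common use as proliferation markers showed how far 1 heart can set a mean. Mki67, the gene of the Ki-67 antigen, had levels of 7.78, 5.68 and 6.09 in Ppif-/- hearts and of 5.73, 5.47 and 5.76 in WT hearts. Ppif-/- heart 1 lay 1.89 above the mean of the other Ppif-/- hearts, and heart 2 lay within the range of the WT hearts. The difference was 0.86 ± 0.47 SE (limma adjusted p = 0.489) with all hearts and 0.23 ± 0.15 SE without Ppif-/- heart 1. Top2a, the gene of the topoisomerase that untangles chromosomes before mitosis, had levels of 7.85, 6.04 and 5.92 against 5.49, 5.35 and 5.61. Here all Ppif-/- hearts were above all WT hearts. The difference was 1.12 ± 0.45 SE (limma adjusted p = 0.352), and 0.50 ± 0.10 SE (limma adjusted p = 0.106) without Ppif-/- heart 1. The second Top2a probe set, at a mean level of 2.46 and below the olfactory receptor median, had a difference of -0.0005 (limma adjusted p = 0.999).

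**Figure D3:**
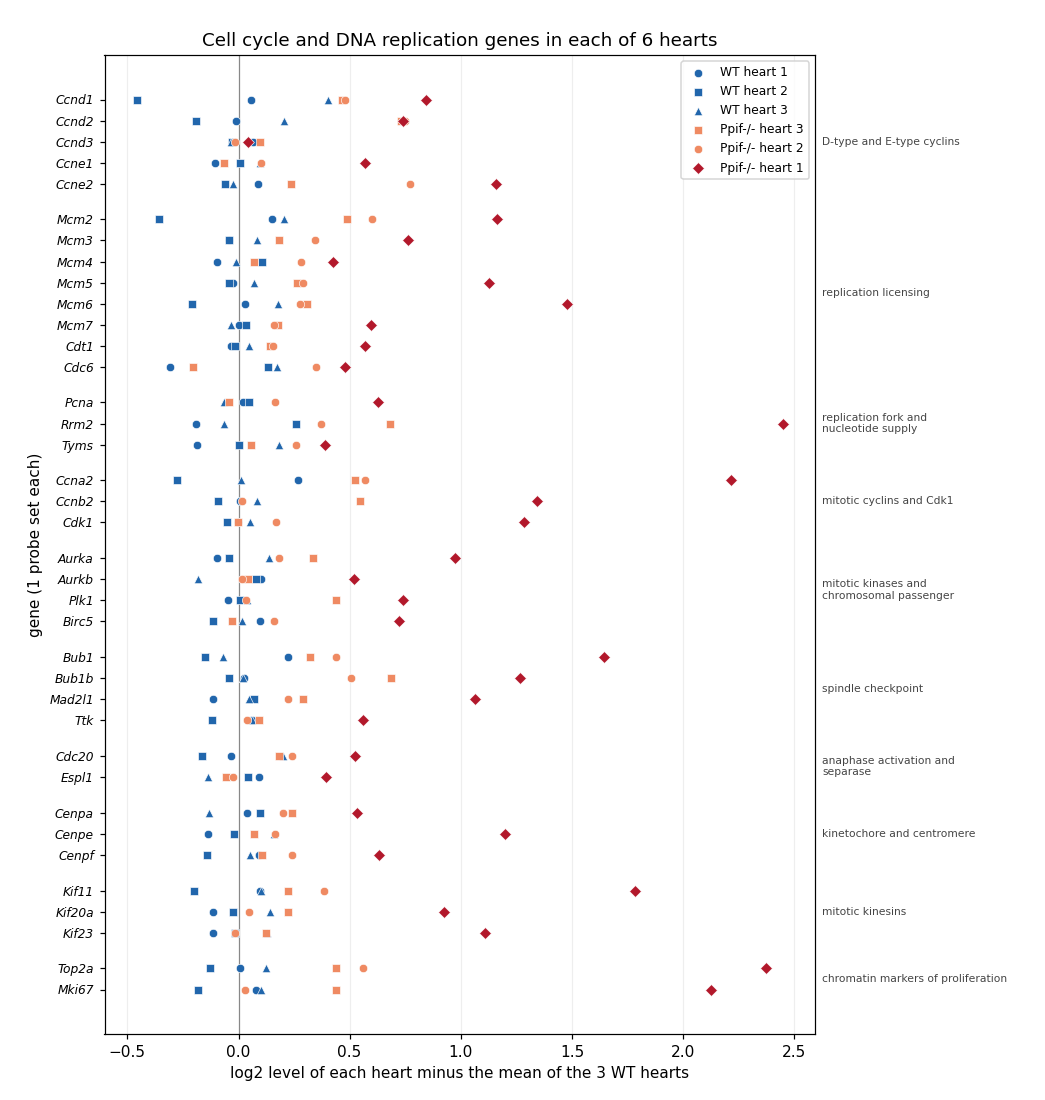
Each row is a gene, arranged by role, and each marker is the log2 level of a heart minus the mean of the 3 WT hearts. Ppif-/- heart 1 (red diamonds) is the rightmost marker in 35 of the 37 rows, the exceptions being Ccnd2 and Ccnd3, while hearts 2 and 3 (orange) mostly lie closer to the WT hearts (blue).

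Genes of the later cell cycle are known to share promoter elements. CCAAT boxes bind the factor NF-Y, the cell cycle genes homology region (CHR) binds the MuvB complexes, and E2F sites are frequent in genes of DNA copying. RefSeq start sites on GRCm38.p6 were in hand for 30 of the 37 genes, and a window from 250 bases before to 30 bases after the first listed start was read. Aurkb, Ccna2, Ccnd1, Ccnd2, Ccne2, Kif20a and Mcm4 were not among the 30. The letters searched on both strands were TTTGAA or TTCGAA for the CHR, CCAAT for the CCAAT box, and GCGGGAA or GCGCGAA for E2F. In the 30 windows, 1 pair of matches to different motifs overlapped. These are the 280-base windows of the 6 genes with the largest excess of Ppif-/- heart 1 among those with a single listed start, printed so that the elements can be read in place. Whether the elements bear on that excess was not tested. Capitals mark matches to any of the motifs, and each is written 5′ to 3′ on the strand of its gene.
Rrm2: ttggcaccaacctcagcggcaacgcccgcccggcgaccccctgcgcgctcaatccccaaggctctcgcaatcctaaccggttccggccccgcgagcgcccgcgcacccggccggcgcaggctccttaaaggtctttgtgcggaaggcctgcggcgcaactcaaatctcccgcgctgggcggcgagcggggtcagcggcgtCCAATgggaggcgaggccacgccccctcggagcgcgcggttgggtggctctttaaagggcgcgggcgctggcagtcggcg
Mki67: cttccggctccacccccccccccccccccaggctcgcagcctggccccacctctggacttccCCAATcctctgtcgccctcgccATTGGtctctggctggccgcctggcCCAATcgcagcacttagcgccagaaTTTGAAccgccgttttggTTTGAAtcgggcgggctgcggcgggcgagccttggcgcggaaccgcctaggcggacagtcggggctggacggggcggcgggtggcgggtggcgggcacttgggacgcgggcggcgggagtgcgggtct
Top2a: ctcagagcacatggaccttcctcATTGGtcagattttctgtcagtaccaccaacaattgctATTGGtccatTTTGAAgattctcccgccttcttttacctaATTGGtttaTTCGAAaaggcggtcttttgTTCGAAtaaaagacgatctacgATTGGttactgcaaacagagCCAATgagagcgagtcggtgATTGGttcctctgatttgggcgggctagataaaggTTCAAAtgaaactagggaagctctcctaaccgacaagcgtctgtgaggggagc
Kif11: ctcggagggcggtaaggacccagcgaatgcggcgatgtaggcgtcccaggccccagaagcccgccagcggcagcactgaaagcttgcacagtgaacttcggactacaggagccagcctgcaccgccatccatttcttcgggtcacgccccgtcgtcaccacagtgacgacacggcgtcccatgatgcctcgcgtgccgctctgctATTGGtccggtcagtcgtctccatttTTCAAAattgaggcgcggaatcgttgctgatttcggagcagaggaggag
Bub1: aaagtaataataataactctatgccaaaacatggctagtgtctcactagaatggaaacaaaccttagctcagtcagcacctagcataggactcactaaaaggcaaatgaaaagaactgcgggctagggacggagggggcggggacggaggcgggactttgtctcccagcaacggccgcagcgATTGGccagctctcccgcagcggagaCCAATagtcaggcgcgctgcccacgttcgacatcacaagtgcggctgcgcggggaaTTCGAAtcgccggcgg
Cdk1: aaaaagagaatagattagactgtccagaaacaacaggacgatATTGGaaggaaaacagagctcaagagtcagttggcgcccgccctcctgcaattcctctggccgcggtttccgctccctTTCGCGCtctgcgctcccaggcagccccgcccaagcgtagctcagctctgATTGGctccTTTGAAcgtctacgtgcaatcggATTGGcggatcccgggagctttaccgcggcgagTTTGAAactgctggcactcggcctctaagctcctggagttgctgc

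The Rrm2 window lies at chr12:24708004-24708283 on the plus strand and held 1 CCAAT box, 50 bases before the start, with no CHR or E2F match. The Mki67 window, at chr7:135716350-135716629 on the minus strand, held 2 CHR matches, 116 and 98 bases before the start, and 3 CCAAT boxes farther out. The Top2a window, at chr11:99024160-99024439 on the minus strand, was the richest of the 6, with 4 CHR matches and 6 CCAAT boxes. The Kif11 window, at chr19:37376132-37376411 on the plus strand, had a CHR match 19 bases and a CCAAT box 45 bases before the start. The Bub1 window, at chr2:127831830-127832109 on the minus strand, had 1 CHR match just inside the transcript and 2 CCAAT boxes before the start. The Cdk1 window, at chr10:69352883-69353162 on the minus strand, held 2 CHR matches and 3 CCAAT boxes, and it had the E2F match, 130 bases before the start, that the other 5 lacked. Of the 6 windows, 5 therefore held a CHR match together with a CCAAT box.

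Over all 30 windows, 15 held a CHR match (50%) and each of these also held a CCAAT box, against 18.6% and 7.07% of all 27025 genes of the promoter table. CCAAT boxes were in 23 of the 30 (76.7%), against 36.6%, and E2F matches in 7 (23.3%), against 5.66%. The motifs differed by phase of the cycle. Of 18 genes acting in mitosis, 13 held a CHR match (72.2%) and 1 an E2F match (5.56%). Of 12 genes of the cyclin D and E, licensing, fork and nucleotide groups, 2 held a CHR match (16.7%) and 6 an E2F match (50%). Those 6 were all licensing genes, namely Cdc6, Cdt1, Mcm3, Mcm5, Mcm6 and Mcm7. No E2F match was found in Mcm2, Ccnd3, Ccne1, Pcna, Rrm2 or Tyms. These are matches of letters in a window, not sites shown to be bound.

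Other genes of the same pathways were taken from 8 lists, chosen with earlier results of these data known. Of all probe sets tested, 0.624% were higher and 0.461% lower at a limma adjusted p under 0.05. At an unadjusted p under 0.05 by limma, 6.10% were higher and 6.81% lower. Counts in these lists and in the cell type markers below read against those shares. The securin and cohesin list, of genes that hold sister chromatids together, had 17 measured genes, of which 1 was higher and 1 lower at a limma adjusted p under 0.05, and its median difference was -0.0070, or -0.04 without Ppif-/- heart 1. The higher gene was Pttg1 itself. The lower gene was Esco1, an acetyltransferase gene of cohesin, with levels of 7.70, 7.66 and 7.49 in Ppif-/- hearts and of 8.41, 8.33 and 8.27 in WT hearts. It fell by 0.72 ± 0.08 SE (limma adjusted p = 0.00728), and passed also without Ppif-/- heart 1 (limma adjusted p = 0.0178). Its second probe set differed by -0.43 (limma adjusted p = 0.151).

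The anaphase-promoting complex and its regulators had 18 measured genes, of which 0 passed by limma in either direction, and the median was 0.00043. Against 6.10% and 6.81% of all probe sets tested, 3 of the 18 were higher and 1 lower at an unadjusted p under 0.05. The smallest p among them belonged to Ube2s, a ubiquitin-conjugating enzyme gene of the complex, with a difference of 0.22 (limma adjusted p = 0.242), or 0.21 without Ppif-/- heart 1. Of 7 measured CDK inhibitor genes, which act as brakes on the cycle, 0 passed by limma and 1 was lower at an unadjusted p under 0.05, Cdkn1c, with a difference of -0.21 (limma adjusted p = 0.245), or -0.18 without Ppif-/- heart 1. Of 19 RB, E2F and DREAM genes, which switch cell cycle genes on and off, 0 passed by limma and the median was 0.04, with 3 higher and 0 lower at an unadjusted p under 0.05. E2f1 had the smallest p of these, with levels of 6.22, 5.75 and 5.80 in Ppif-/- hearts and of 5.64, 5.34 and 5.52 in WT hearts (difference 0.43, limma adjusted p = 0.24), and its difference was 0.28 without Ppif-/- heart 1. Of 17 other CDK genes and their regulators, 0 passed by limma, 2 were higher and 1 lower at an unadjusted p under 0.05, and Cdk2 had the smallest p (difference 0.26, limma adjusted p = 0.189, and 0.24 without Ppif-/- heart 1).

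The other replication genes were 37 measured genes of origins, polymerases, clamp loaders and nucleotide supply. Of these, 1 was higher and 0 lower at a limma adjusted p under 0.05, against 0.624% and 0.461% of all probe sets tested. At an unadjusted p under 0.05 by limma, 6 of the 37 were higher, against 6.10%, and 0 lower, against 6.81%. Their median was 0.09, or 0.03 without Ppif-/- heart 1. The gene that passed was Mcm8, whose product works in DNA repair by recombination and not in the main replicative helicase. Its levels were 6.66, 6.67 and 6.39 in Ppif-/- hearts and 6.04, 5.76 and 5.83 in WT hearts, without overlap (0.70 ± 0.11 SE, limma adjusted p = 0.028). The call was lost without Ppif-/- heart 1 (limma adjusted p = 0.0887) or Ppif-/- heart 2 (limma adjusted p = 0.108). It was also lost without WT heart 2 (limma adjusted p = 0.0878) or WT heart 3 (limma adjusted p = 0.106). It held without Ppif-/- heart 3 (limma adjusted p = 0.035) or WT heart 1 (limma adjusted p = 0.0387).

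The other spindle, centrosome and cytokinesis genes were, by median difference, the list most like the 37 genes. Of 31 measured, 29 had a difference above 0, against 49.2% of all probe sets tested. In 19 of the 31, every Ppif-/- heart lay above every WT heart, against 9.21% of all. At an unadjusted p under 0.05 by limma, 10 of the 31 were higher, against 6.10%, and 0 lower, against 6.81%. The median was 0.40 with all hearts and 0.19 without Ppif-/- heart 1. That heart was the highest in 25 of the 31 genes, against 15.1% of all probe sets tested. This list too was chosen with earlier results known, so a call in it is no independent finding. The gene that passed the adjusted threshold was Nedd1, whose product brings gamma-tubulin to the centrosome. Its levels were 8.99, 9.03 and 8.87 in Ppif-/- hearts and 7.57, 7.57 and 7.54 in WT hearts (1.40 ± 0.07 SE, limma adjusted p = 9.34e-05), and the difference was 1.39 without Ppif-/- heart 1 (limma adjusted p = 0.000868). Like Pttg1 and Ccnd2, Nedd1 was nearly level over the 3 Ppif-/- hearts. In Nuf2, a kinetochore gene, and in Anln, the gene of the cytokinesis protein anillin, Ppif-/- heart 1 lay 1.90 and 1.66 above the mean of the other Ppif-/- hearts.

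Of 17 measured p53 target and DNA damage genes, 2 were higher and 0 lower at a limma adjusted p under 0.05. The shares of all probe sets tested were 0.624% and 0.461%. At an unadjusted p under 0.05 by limma, 4 of the 17 were higher, against 6.10%, and 0 lower, against 6.81%. The median over the 17 genes was 0.14, or 0.10 without Ppif-/- heart 1. Btg2, an antiproliferative gene that p53 and other signals induce, had levels of 9.01, 8.59 and 8.67 in Ppif-/- hearts and of 7.83, 7.86 and 7.81 in WT hearts (0.92 ± 0.11 SE, limma adjusted p = 0.00871). Phlda3, a p53 target whose product restrains Akt, had levels of 7.20, 7.004 and 7.32 against 6.46, 6.67 and 6.52 (0.63 ± 0.10 SE, limma adjusted p = 0.0336). The groups of both genes did not overlap. The call on Btg2 held with each heart left out in turn, and that on Phlda3 was lost without any heart other than Ppif-/- heart 2, with limma adjusted p-values of 0.0542 to 0.127.

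**Figure D4:**
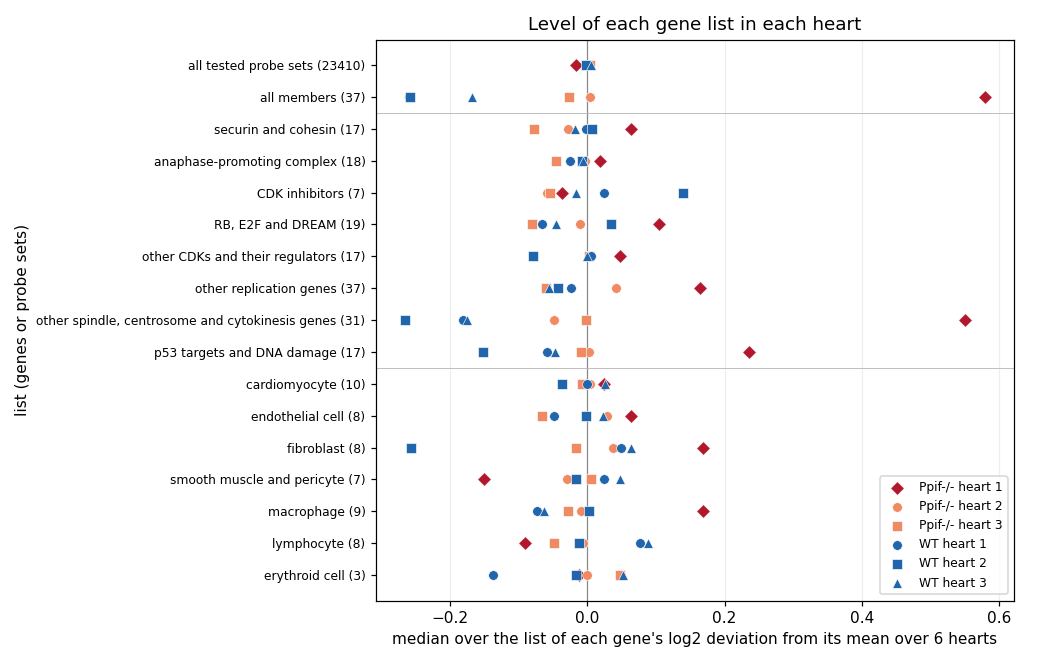
Rows are gene lists with their number of genes or probe sets, and markers give, for each heart, the median over the list of the log2 deviation from each gene's mean over 6 hearts. Ppif-/- heart 1 (red diamond) stands at 0.58 for the 37 genes and apart from the rest in the other spindle genes, while the cell type lists lie nearer to 0.

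Markers of the other cell types of a heart were read beside these genes. The summed log2 level of the 37 genes was 13.38 in Ppif-/- heart 1, 13.00 and 12.97 in hearts 2 and 3, and 12.43 to 12.66 in WT hearts. Bright genes such as Ccnd2 weigh most in this sum. For the 32 genes without the D-type and E-type cyclins it was 12.46, 11.72 and 11.69 in Ppif-/- hearts 1 to 3. In WT hearts it was 11.49 to 11.51 for those 32 genes. Over 9 macrophage markers the summed level was 11.80, 11.64 and 11.65 in Ppif-/- hearts 1 to 3, and 11.61 to 11.64 in WT hearts. Ppif-/- heart 1 was the highest of the 6 hearts in 7 of the 9, against 15.1% of all probe sets tested. Of these markers 1 passed by limma, Cd68, a lysosomal membrane gene of macrophages, with a difference of 0.56 (limma adjusted p = 0.0394), and it did not pass without Ppif-/- heart 1 (limma adjusted p = 0.101). The macrophage markers did not move together, with differences from -0.53 to 0.56, of which 6 of 9 were above 0. At an unadjusted p under 0.05 by limma, 2 of the 9 were higher and 1 lower, against 6.10% and 6.81% of all probe sets tested. Over 8 fibroblast markers the summed level was 13.39 to 13.50 in Ppif-/- hearts and 13.39 to 13.46 in WT hearts, and Pdgfra, a fibroblast receptor gene, fell by 0.44 (limma adjusted p = 0.0246), a call lost without Ppif-/- heart 1 (limma adjusted p = 0.0693). Pdgfra was the lowest of these markers, and the differences of the 8 reached 0.39, with 4 of them above 0. At an unadjusted p under 0.05 by limma, 0 of the 8 were higher and 1 lower. Over 8 endothelial markers the summed level was 13.17 to 13.30 against 13.19 to 13.28, with 0 passing by limma and 2 higher and 0 lower at an unadjusted p under 0.05. Over 7 markers of smooth muscle and pericytes it was 12.92 to 12.97 against 12.90 to 13.05, and Tagln, a smooth muscle gene, fell by 0.51 (limma adjusted p = 0.0332), and did not pass without Ppif-/- heart 1 (limma adjusted p = 0.088). The differences of the 7 ran from -0.53 to 0.27, with 1 above 0. At an unadjusted p under 0.05 by limma, 1 of the 7 was higher and 2 lower. Over 8 lymphocyte markers the summed level was 8.47 to 8.60 against 8.56 to 8.64, and 2 of the 8 lay above the olfactory receptor percentile. At an unadjusted p under 0.05 by limma, 0 of the 8 were higher, against 6.10% of all probe sets tested, and 3 lower, against 6.81%. Without Ppif-/- heart 1, 1 was higher, against 6.42%, and 2 lower, against 6.06%. Over 3 erythroid markers the summed level was 8.04 to 8.18 against 7.77 to 8.04, with 1 higher and 0 lower at an unadjusted p under 0.05 by limma. The part of any of these cell types in the levels of the cell cycle genes was not tested.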

How the data were processed

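RNA of 6 whole mouse hearts was hybridised to Affymetrix Gene 1.0 ST arrays, 3 Ppif-/- and 3 WT. The deposited values are log2 signals made by the authors with RMA, per the submitters' processing notes; the sources used here do not give its software or version. No further normalization was applied. Probe sets were named from the platform annotation, with symbols updated through Entrez identifiers to a RefSeq table of GRCm38.p6. Of 35557 probe sets, 21789 had 1 symbol (21698 matched to that table), 1621 several and 12147 none. The 23410 probe sets with a symbol were fitted in R 4.3.3 with limma 3.58.1 (linear model and empirical Bayes, genotype alone, all 6 hearts, 2-sided), and p-values were Benjamini-Hochberg adjusted over all of them. The scripts were tested on simulated data. With 3 hearts per group an exact permutation test cannot go below p = 0.1, so single values were not tested that way. The number of arrays limits the precision, and no detection calls were used.

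Members, role groups, pathway lists and cell type markers were chosen with earlier results of these data known. Values in every heart were given for members past the threshold, the 10 with the smallest p, and Mki67, Top2a, Cdk1, Espl1, Cdc20 and Pttg1; the rule also named Ccnb1, which was not measured. Those of Ccnd3, Ccne1, Mcm6, Rrm2, Pcna, Ccnb2, Bub1 and E2f1 were added after their values were seen. From each pathway list the genes that passed were named, or the 1 with the smallest p where none did, and Nuf2 and Anln were added after their values were seen. Summed levels of a list are the log2 of its genes' summed linear signals. Promoters came from the RefSeq table of GRCm38.p6, first listed start of each gene. There were 16 alternatives, of which 6 left out a heart.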

Additional observations from a re-analysis of the deposited data

How the results depend on the processing

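Under all 16 alternatives, Pttg1 stayed higher (3.10 to 3.33, limma adjusted p at most 0.000729). Named members kept their direction under each alternative that tested them, except Espl1, whose difference was -0.040 (without Ppif-/- heart 1) to 0.19 with hearts left out. The count over all probe sets tested (254) became 160 with the replicate block, 403 with brighter probe sets only (which left 20 of the 37 members, without Bub1b, Ccne2, Ccna2, Top2a, Cdk1 and Espl1), 131 with all probe sets of the table, 453 with a trend, 386 with array weights and 131 to 171 with each heart left out in turn. The count of members higher (1) became 0 with all probe sets of the table and was 0 to 1 with hearts left out: 0 without Ppif-/- heart 2 or WT heart 1, and otherwise Ccnd2, Bub1b or Ccne2. The adjusted limma p of Ccnd2 was 0.0442 with the replicate block and 0.0695 with all probe sets of the table. Other replication genes higher (1) became 0 with all probe sets of the table and 0 to 1 with hearts left out, p53 and DNA damage genes (2) 1 with the replicate block or all probe sets of the table and 1 to 2 with hearts left out, and other spindle genes (1) 1 to 2 with hearts left out, 2 being without Ppif-/- heart 2, where Cdca8 joined Nedd1. The causes were not tested, save that fewer hearts or more probe sets were used. The median over members was 0.22 to 0.62 with hearts left out. Deviations from the group means correlated at -0.08, -0.06 and 0.12 between hearts with the same number. With 3 hearts per group these values cannot show whether the hearts were paired, which the labels do not say. Levels near the olfactory receptor signal limit Birc5, Bub1, Ttk, Cenpe and Kif11. They also limit Bub1b, Ccna2 and Ccne2, in which every WT heart lay below the olfactory receptor percentile.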

Other observations

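Genes outside the lists also stood apart in Ppif-/- heart 1. Of the 50 probe sets with 1 symbol in which that heart lay farthest above the mean of the other Ppif-/- hearts, 11 belonged to the 37 genes. The 37 genes had 39 of the 21789 probe sets with 1 symbol. These 11 are the genes counted above as at least 1 log2 unit higher in that heart. Together with the pathway lists the count was 23, and the share of those lists among all probe sets was not worked out. The farthest of the 50 was Fmn1, the gene of an actin-nucleating formin, with levels of 8.04, 5.47 and 5.61 in Ppif-/- hearts and of 5.71, 6.20 and 5.68 in WT hearts. Hspa1a, a heat shock gene, came next, with levels of 10.09, 8.26 and 7.83 against 6.78, 7.63 and 7.12. Fos, an immediate early gene, had levels of 8.82, 7.82 and 7.44 against 6.83, 6.16 and 6.06. Both Hspa1a and Fos were highest in Ppif-/- heart 1, and in both every Ppif-/- heart lay above every WT heart. In the other direction, Trim12a had levels of 3.37, 7.16 and 7.08 in Ppif-/- hearts and of 7.82, 7.96 and 7.57 in WT hearts. In that 1 probe set alone, Ppif-/- heart 1 lay at least 1 log2 unit below the mean of the other Ppif-/- hearts.

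Several of the other genes that were high in Ppif-/- heart 1 also belong to dividing cells. Arhgap11a and Spag5, genes of cytokinesis and of the spindle, had an excess of 1.38 each. H1f5, a linker histone gene, had an excess of 1.36, and Uhrf1, a gene of DNA methylation upkeep, of 1.14. Those genes and Trim12a were named after their values were seen.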
